A study of Mus musculus with 6 samples.

Results

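The 26S proteasome is the protease of the cytosol and nucleus that degrades proteins tagged with ubiquitin. Its genes were taken from the count tables of the small intestine epithelium of mouse embryos by symbol, as every gene named Psma to Psmg with a number, and 48 of the 23366 listed genes met this. They comprise 19 core genes (Psma and Psmb), 20 regulatory genes (Psmc and Psmd) and 9 others, which encode 4 activator subunits (Psme), the inhibitor Psmf1 and 4 assembly chaperones (Psmg). After the filter on low counts 47 of the 48 were among the 12501 genes tested, and only Psmb11 was not.

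The study asked how loss of the transcription factor TCF7L1 changes the developing gut epithelium. RNA sequencing was performed on 6 libraries from E13.5 embryos, 3 from Shh-cre-egfp:Tcf7l1 lox/lox mutants and 3 from wild type embryos, described as biological replicates, with no treatment in either group. Each library was made from 500 living EpCAM+ cells sorted from dissociated intestine, with 15 cycles of cDNA amplification. Total counts lay between 18216537 and 20397278, with no molecular identifiers. In the mutant, Cre and EGFP are expressed from the Shh locus and remove a loxP-flanked exon of Tcf7l1 in cells that express or have expressed Shh, and the wild type group carries no stated allele. No group had Cre without the floxed Tcf7l1 allele, so loss of Tcf7l1 and the altered Shh locus cannot be told apart. Sex, litter and the embryos behind each library are not given in the sources used here.

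The barrel-shaped core particle is built of rings of alpha subunits, which form the gate, around rings of beta subunits, of which Psmb5, Psmb6 and Psmb7 carry the proteolytic sites. Interferon induces Psmb8, Psmb9 and Psmb10, which take the place of these catalytic subunits in the immunoproteasome and favour peptides for MHC class I. The regulatory particle recognizes ubiquitin chains, removes them and unfolds the substrate with a ring of ATPases, while the Psme activators open the core without ubiquitin recognition.

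Tcf7l1 followed the genotype labels. Counted over the whole gene, it fell from 437 ± 63.9 to 49.0 ± 21.0 normalized counts (SD, n = 3 in each group, edgeR's quasi-likelihood test, adjusted p = 4.2e-07). Shh was lower too, at 480 ± 65.7 and 197 ± 22.6 normalized counts (adjusted p = 6.1e-05). The 8 epithelial markers summed to between 7998 and 8518 CPM (counts scaled to library size) in wild type and between 7759 and 7958 CPM in mutant libraries. Of these, 1 was higher at an adjusted p under 0.01 (Cldn7) and 5 lower (Cdh1, Krt8, Krt18, Krt19 and Cdx2), and their part in the results below was not tested. Leukocyte markers, which bear on the immunoproteasome genes, summed to between 1.70 and 4.82 CPM in wild type and between 1.59 and 2.29 CPM in mutant libraries, and Ptprc, which marks all leukocytes, was at 0 in each. Mesenchymal markers summed to 2.14 to 9.90 CPM in wild type and 1.08 to 1.75 CPM in mutant libraries, and neural crest markers to 1.75 to 2.77 and 3.24 to 3.66 CPM. The erythroid and endothelial sums did not exceed 1.06 CPM. Genes of the response to dissociation summed to 2079 to 2273 CPM in wild type and 2466 to 2746 CPM in mutant libraries. Their members moved in both directions, with Atf3 (1.03 on the log2 scale) and Hspa1b (1.34) higher and Jun (-1.11) and Fos (-0.44) lower at an adjusted p under 0.01, and the part of these genes was not tested either. In bulk libraries of this kind, fewer cells of a type and less RNA per cell cannot be told apart.

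One library has to be named before the results. Wild type 3 stood apart from the other wild type libraries, with a chi-square per gene of 16.0 and 17.9 against them, where wild type 1 and wild type 2 differed by 8.57. Against the mutant libraries, the chi-square per gene over all genes was 27.9 to 32.3 for wild type 3. It was 39.0 to 54.2 for wild type 1 and 2, so wild type 3 was nearer to the mutants over all genes. Of the 47 tested proteasome genes, 40 had their highest wild type value in wild type 3, whereas 38 had their highest mutant value in mutant 2. The same counts were not made over all tested genes. Counts are therefore also given without wild type 3.

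Promoters are shown for Psmb5 and Psmb6, for their inducible counterparts Psmb8 and Psmb9, and for the activators Psme1 and Psme3, so that the pairs compared further on can be read beside each other. Each is the 250 bases before the RefSeq gene start on GRCm38.p6 (the counts themselves were made on mm9), written 5′ to 3′ on the strand of the gene. Capitals mark TGACNNNGC, the core of the antioxidant response element, or TTCNNNGAA, the gamma-activated site of STAT factors, where N is any base and both strands were searched.
Psmb5 (chr14:54617996-54618245, minus strand): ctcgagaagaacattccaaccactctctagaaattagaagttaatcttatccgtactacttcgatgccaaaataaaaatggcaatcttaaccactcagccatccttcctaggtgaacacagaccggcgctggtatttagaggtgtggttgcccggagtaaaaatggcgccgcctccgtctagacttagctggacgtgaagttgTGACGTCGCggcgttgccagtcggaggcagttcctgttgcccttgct
Psmb6 (chr11:70525107-70525356, plus strand): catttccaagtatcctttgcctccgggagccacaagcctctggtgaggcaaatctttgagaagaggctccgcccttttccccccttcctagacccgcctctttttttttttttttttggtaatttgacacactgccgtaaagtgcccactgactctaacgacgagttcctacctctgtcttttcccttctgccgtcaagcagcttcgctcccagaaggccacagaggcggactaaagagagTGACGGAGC
Psmb8 (chr17:34197945-34198194, plus strand): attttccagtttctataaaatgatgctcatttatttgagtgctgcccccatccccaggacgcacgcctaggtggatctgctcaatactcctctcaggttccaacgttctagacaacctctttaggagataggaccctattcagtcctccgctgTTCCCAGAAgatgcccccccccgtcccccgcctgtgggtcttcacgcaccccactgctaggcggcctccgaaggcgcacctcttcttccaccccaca
Psmb9 (chr17:34187331-34187580, minus strand): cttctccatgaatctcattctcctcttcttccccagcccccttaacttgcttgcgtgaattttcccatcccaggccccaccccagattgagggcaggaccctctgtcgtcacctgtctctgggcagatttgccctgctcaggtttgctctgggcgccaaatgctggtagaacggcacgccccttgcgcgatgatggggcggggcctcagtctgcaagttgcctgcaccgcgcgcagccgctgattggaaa
Psme1 (chr14:55578244-55578493, plus strand): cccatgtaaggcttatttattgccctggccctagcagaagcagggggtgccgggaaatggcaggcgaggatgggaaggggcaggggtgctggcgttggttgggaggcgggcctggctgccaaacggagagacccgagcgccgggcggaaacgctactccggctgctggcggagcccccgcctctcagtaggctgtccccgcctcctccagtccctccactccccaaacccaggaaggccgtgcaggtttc
Psme3 (chr11:101315963-101316212, plus strand): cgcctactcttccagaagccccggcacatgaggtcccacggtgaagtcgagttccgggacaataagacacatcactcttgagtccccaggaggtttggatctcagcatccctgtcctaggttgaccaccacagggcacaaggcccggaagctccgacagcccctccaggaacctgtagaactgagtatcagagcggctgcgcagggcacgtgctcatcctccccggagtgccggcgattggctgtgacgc
RefSeq entries were found for 40 of the 48 genes, with 43 promoters in all. TGACNNNGC stood in 11.6% of these 43 promoters (Psmb5, Psmb6, Psmc6, Psmd9 and Psmd12), against 10.2% of all 32851 promoters in the table. TTCNNNGAA was found in those of Psmb8 and Psmg1, 4.65% against 7.02% of all, and the interferon-stimulated response element in those of Psmb3, Psmd4 and Psmd9, 6.98% against 2.98%. CTTTGAT, a site of TCF/LEF factors, lay only in the Psmd10 promoter, 2.33% against 3.21% of all. The CCAAT box stood in 32.6% of these promoters and in 33.8% of the whole table. None of these letters is evidence of a bound site, and a promoter without them may hold others.

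Proteasome genes as a family lay slightly above wild type in the mutant epithelium. The log2 fold change (mutant against wild type, scaled by the trimmed mean of M values, TMM) was positive for 43 of the 47 tested genes and negative for 4, where 45.7% of all 12501 tested genes were positive and 54.3% negative. Its median was 0.24, against -0.04 for all tested genes, a gap that narrowed when libraries were corrected for gene length or expression level, and 29 genes were positive with the centred length correction. At an adjusted p under 0.01, the threshold of the study, 7 genes rose (Psma2, Psmd6, Psmd7, Psmd8, Psmd11, Psmd14 and Psme2) and 0 fell, where 7.32% of all tested genes rose and 7.61% fell, so that 14.9% of the tested proteasome genes were called higher. DESeq2 called 23 higher and 1 lower. Over all tested genes DESeq2 called 1395 higher and 1186 lower, in place of 915 and 951. Under the wider limit of 0.05, 26 genes (55.3%) were higher and 1 (Psme3) was lower, beside 13.6% and 15.1% of all tested genes. All 3 mutant libraries lay above all 3 wild type libraries for 32 genes (68.1%, all tested genes 20.8%) and below them for 2 (all tested genes 22.2%), while 13 overlapped. No proteasome gene met the fold limit of the study, a log2 difference of 0.5 or more in size with an adjusted p under 0.01, combined here with a mean normalized count of at least 50 where the study set a minimum RPKM. Of all tested genes, 2.78% met these limits upward and 5.83% downward.

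The number of calls turned on wild type 3. Without this library 32 proteasome genes passed 0.01 upward and 1 downward, and without any one of the other 5 libraries between 1 and 2 were called higher and 0 lower. Over all tested genes these fits called 1587 higher and 1149 lower without wild type 3, and 414 to 504 higher and 486 to 619 lower without one of the others. With library size as the only scaling, which moved the median of all tested genes by -0.11, 2 proteasome genes were higher and 1 was lower. Over all tested genes 491 were then higher and 1250 lower.

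**Figure D1:**
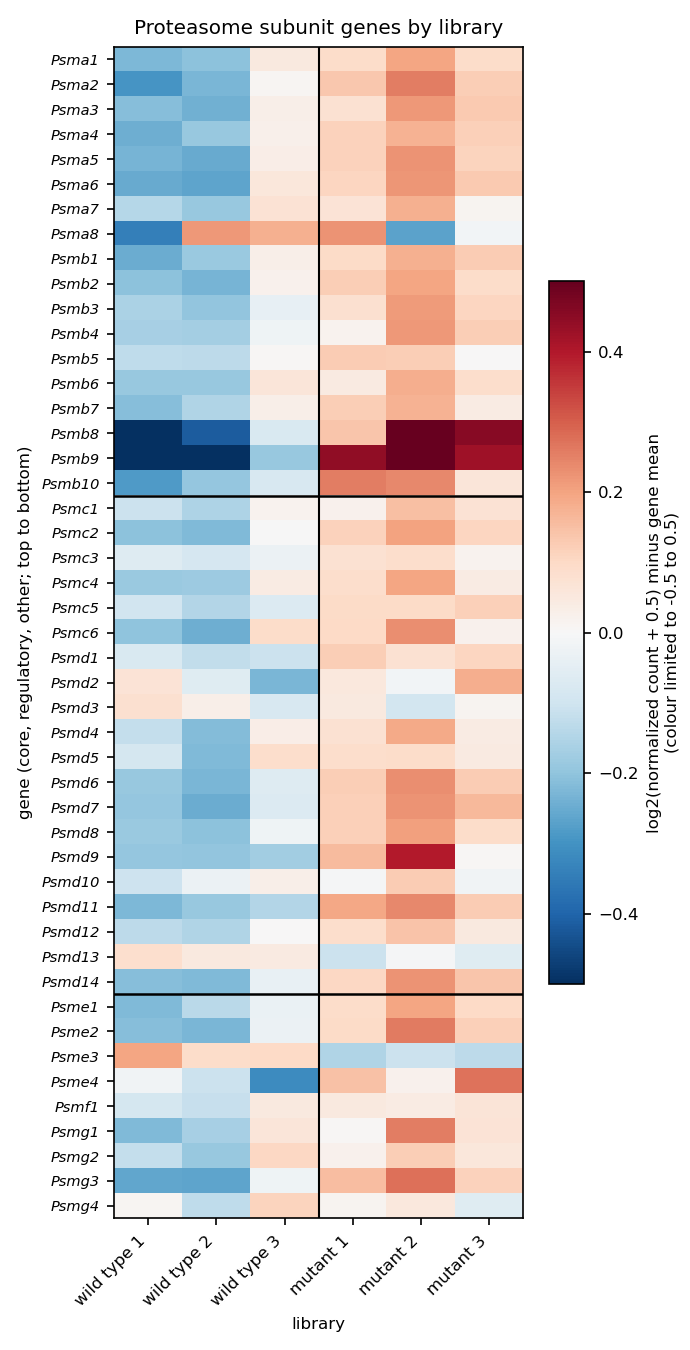
Heat map of the 47 tested proteasome genes (y axis, core, regulatory and other genes from top to bottom) in the 6 libraries (x axis), coloured by the log2 normalized count minus the mean of the gene over all libraries, with the colour limited to -0.5 to 0.5. Most genes run from blue in wild type 1 and 2 through near white in wild type 3 to red in the mutant libraries, with Psme3 and Psmd13 in the opposite order.

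The core particle had a median of 0.27, with 17 of its 18 tested genes positive. Of these 18, 1 rose at an adjusted p under 0.01 (5.56%, all tested genes 7.32%), so this class was not called more often than other genes. Upward, 13 passed 0.05 (72.2%, all tested genes 13.6%) and 14 did not overlap between the groups (77.8%, all tested genes 20.8%). Core genes took 0.491%, 0.499% and 0.562% of all counts in the 3 wild type libraries, in order, against 0.561%, 0.598% and 0.562% in the 3 mutant libraries. The first pair of wild type libraries was thus below every mutant library, and wild type 3 reached the mutant range. By the median deviation of the core genes from their means over the 6 libraries, on the log2 scale, wild type 1 and 2 stood at -0.23 and -0.20, wild type 3 at 0.03 and the mutants at 0.12, 0.20 and 0.11.

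Among the alpha subunits, which make the outer rings and the gate, Psma2 was the one that rose. Its normalized counts were 7567, 7934 and 9347 in the wild type libraries and 10183, 11104 and 10112 in the mutant libraries. The groups did not overlap, although wild type 3 lay much closer to the mutants than the others did. The log2 fold change was 0.34 (SE 0.08, edgeR adjusted p = 0.0059). Leaving out one library at a time gave adjusted p values between 7.3e-05 and 0.041, and the call was kept only without wild type 3. With a correction for expression level the call was lost (0.15, edgeR adjusted p = 0.072), and with those for gene length it was kept. Psma1, Psma3, Psma4, Psma5 and Psma6 had log2 fold changes from 0.25 to 0.30 and did not overlap, with adjusted p values between 0.014 and 0.026. In Psma3, Psma4 and Psma5, 25.3%, 25.5% and 38.1% of all possible 84-base windows of the transcript also occur elsewhere in mm9. Only uniquely mapping reads were counted, so reads from such windows may be missing, but their loss was not tested.

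Psma7 was the most abundant of all proteasome genes per length. At 876 ± 86.2 RPKM (normalized counts scaled to the length of the coding transcript and to library size, SD, n = 3) in wild type and 985 ± 57.4 in mutant libraries, its groups overlapped and its log2 fold change was 0.17 (SE 0.08, edgeR adjusted p = 0.107). Psma8, the paralogue of Psma7 found in the germ cells of the testis, was the least abundant of the tested genes at 0.522 RPKM. It had 13.1, 19.5 and 19.0 normalized counts in wild type against 19.6, 13.8 and 16.6 in mutant libraries, with a log2 fold change of -0.04 (SE 0.58), so a difference was not detectable at this depth.

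The structural beta subunits Psmb1, Psmb2, Psmb3 and Psmb4, which have no proteolytic site, were close to each other. Their log2 fold changes lay between 0.24 and 0.27, no gene overlapped between the groups, and the edgeR adjusted p values lay between 0.014 and 0.029. Each was thus past 0.05 and short of 0.01.

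The constitutive catalytic subunits had smaller values. Psmb5, the chymotrypsin-like subunit, had 871, 867 and 955 normalized counts in wild type against 1037, 1035 and 951 in mutant libraries. Psmb6, the caspase-like subunit, had 9502, 9501 and 11283 in wild type against 11175, 12279 and 11512 in mutant libraries. Both overlapped because wild type 3 exceeded the lowest mutant library, and their log2 fold changes of 0.17 (SE 0.10) and 0.21 (SE 0.08) gave edgeR adjusted p values of 0.25 and 0.054. Psmb7, the trypsin-like subunit, had 4282, 4477 and 5070 normalized counts in wild type against 5407, 5607 and 5109 in mutant libraries, which do not overlap (log2 fold change 0.22, SE 0.08, edgeR adjusted p = 0.042). Per length these 3 partners were far apart in wild type libraries, at 52.9 RPKM for Psmb5, 650 for Psmb6 and 204 for Psmb7. Of the transcript windows of Psmb5, 41.1% also occur elsewhere in the genome, against 0% for Psmb6 and 6.87% for Psmb7, so the Psmb5 level may be a low estimate.

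Of the inducible catalytic subunits, Psmb9 and Psmb8 had the largest fold differences of the family, from low levels. Psmb9 had 47.7, 38.1 and 59.7 normalized counts in wild type against 93.0, 108 and 91.6 in mutant libraries. Every mutant library was above every wild type library by a wide gap. The log2 fold change was 1.01 (SE 0.32), a 2.01-fold difference, and the edgeR adjusted p of 0.026 passed 0.05 but not 0.01, with a range of 0.0080 to 0.092 over the alternatives. Psmb8, its neighbour in the MHC region of chromosome 17, had 34.6, 45.6 and 57.8 normalized counts in wild type against 67.2, 99.9 and 83.9 in mutant libraries. These groups did not overlap either, but the log2 fold change of 0.86 had an SE of 0.35 and an adjusted p of 0.073. Psmb10, the inducible counterpart of Psmb7, was expressed at a much higher level, with 856, 912 and 984 normalized counts in wild type against 1244, 1230 and 1086 in mutant libraries (0.37 on the log2 scale, SE 0.11, adjusted p = 0.016). On mm9 the Psmb8 gene lies at chr17:34334666-34338399 and the Psmb9 gene at chr17:34318933-34324709, and 6.83% and 5.79% of their exonic bases overlap a gene on the other strand (Tap1 in the case of Psmb9). Whether counting used strand is not given in the sources used here.

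Set against the constitutive subunit that each replaces, the inducible subunits made up a larger proportion in the mutant. Psmb9 per Psmb6, both per base of transcript, was 0.297%, 0.237% and 0.313% in the wild type libraries and 0.491%, 0.521% and 0.470% in the mutants. Psmb8 per Psmb5 was 2.13%, 2.81% and 3.24% in wild type against 3.46%, 5.16% and 4.72% in mutants. Psmb10 per Psmb7 was 18.3%, 18.6% and 17.7% in wild type against 21.0%, 20.04% and 19.4% in mutants. No ratio overlapped between the groups, wild type 3 included, although the gap for Psmb8 was narrow. With 3 libraries against 3 an exact permutation test cannot give a two-sided p under 0.1, so the ratios are given as values without a test. The inducible transcripts stayed a small part of each pair except for Psmb10. Psmb11, the catalytic subunit of the thymus, had 4 counts in wild type 3 and 0 in the other 5 libraries. A count of 0 allows up to 3 counts in a library, from counting error alone.

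**Figure D2:**
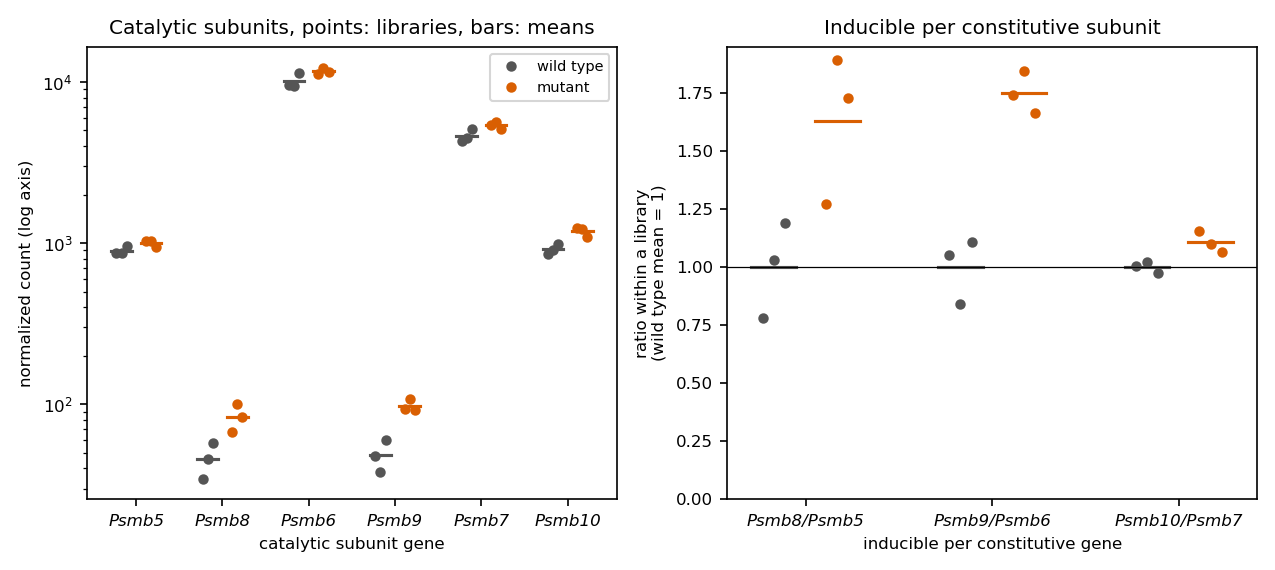
Left, normalized counts (log axis) of each constitutive catalytic subunit beside its inducible counterpart, one point per library and bars at the group means, with wild type in grey and mutant in orange. Right, the ratio of inducible to constitutive subunit within each library divided by the wild type mean (linear axis from 0), in which every mutant point lies above every wild type point for Psmb9/Psmb6, Psmb8/Psmb5 and Psmb10/Psmb7.

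In the regulatory particle the median log2 fold change was 0.20, with 18 of 20 genes positive. Of the 20, 5 rose at an adjusted p under 0.01 (all tested genes 7.32%) and 10 passed 0.05 upward (all tested genes 13.6%). Without overlap between the groups, 14 lay higher (all tested genes 20.8%) and 1 lower (all tested genes 22.2%). The 5 were all non-ATPase subunits. Regulatory genes took 0.751%, 0.736% and 0.762% of all counts in wild type against 0.796%, 0.821% and 0.798% in mutant libraries. Unlike the core share, these shares did not overlap.

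Psmd11, a scaffold subunit of the lid, had the smallest adjusted p of the family. It had 3634, 3726 and 3842 normalized counts in wild type against 4855, 5026 and 4648 in mutant libraries. The wild type libraries were tightly grouped and well below the lowest mutant. The log2 fold change was 0.38 (SE 0.07, edgeR adjusted p = 0.0011), and the call held without any one library (adjusted p at most 0.0093). It was the only proteasome gene whose call at 0.01 held without each of the 6 libraries in turn. Of its transcript windows, 11.0% also occur elsewhere in mm9.

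Psmd14, the metalloprotease of the lid that cuts ubiquitin chains from the substrate, had 7608, 7580 and 8608 normalized counts in wild type against 9484, 10321 and 9704 in mutant libraries. Psmd7, with which it forms a dimer, had 8858, 8522 and 9663 in wild type against 11010, 11837 and 11331 in mutant libraries. Both separated the groups, again with wild type 3 nearest to the mutants. Their log2 fold changes were 0.31 (SE 0.07, edgeR adjusted p = 0.0048) and 0.34 (SE 0.07, adjusted p = 0.0022). Psmd6, another lid subunit, had 5742, 5599 and 6258 normalized counts in wild type against 7145, 7704 and 7147 in mutant libraries (0.32 on the log2 scale, SE 0.07, adjusted p = 0.0035). Psmd8, also of the lid, had 6648, 6570 and 7449 in wild type against 8230, 8716 and 8061 in mutant libraries (0.28 on the log2 scale, SE 0.07, adjusted p = 0.0096). In both genes the lowest mutant was above wild type 3. Leaving out one library raised the adjusted p to at most 0.033 for Psmd14, 0.017 for Psmd7, 0.027 for Psmd6 and 0.057 for Psmd8.

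Psmd9, an assembly chaperone of the ATPase ring, had the highest log2 fold change of the regulatory class and was its least abundant gene per length, at 23.2 RPKM in wild type. Its normalized counts were 1168, 1162 and 1184 in wild type against 1490, 1755 and 1340 in mutant libraries. The mutants were higher but spread widely, and the log2 fold change of 0.38 (SE 0.11) had an edgeR adjusted p of 0.013. The 6 ATPases (Psmc1 to Psmc6), which unfold the substrate, had log2 fold changes from 0.12 to 0.28. Of these, 5 did not overlap (all tested genes 20.8% upward), 3 passed 0.05 (13.6%) and 0 passed 0.01 (7.32%), with Psmc2 nearest at 0.0103. Psmc4 was the most abundant regulatory gene per length at 378 RPKM in wild type. The non-ATPase genes Psmd1, Psmd2, Psmd4, Psmd5, Psmd10 and Psmd12 had log2 fold changes from 0.07 to 0.20, and only Psmd1, the scaffold of the base, passed 0.05 (adjusted p = 0.023).

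Psmd13, a further lid subunit, lay in the other direction from its neighbours in the complex. It had 3024, 2957 and 2947 normalized counts in wild type against 2649, 2842 and 2738 in mutant libraries. The groups did not overlap, yet the difference did not pass the test (log2 fold change -0.12, SE 0.07, edgeR adjusted p = 0.24). Within a library, Psmd13 per Psmd11, both per base, was 119%, 114% and 110% in wild type against 78.1%, 81.0% and 84.4% in mutants. Since Psmd11 had the smallest adjusted p of the family and rose, this ratio would also separate the groups for a level gene. Psmd3 per Psmd11 did so, at 211%, 199% and 179% in wild type against 155%, 135% and 157% in mutants. The ratio is thus no separate sign of a difference in Psmd13. The other negative value of this class was that of Psmd3 (log2 fold change -0.02, SE 0.07), a scaffold subunit whose groups overlapped and whose sign changed with the scaling.

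Of the activators, Psme1 and Psme2, which together form the interferon-inducible PA28 cap of the cytosol, had similar values. Psme2 had 4428, 4379 and 5029 normalized counts in wild type against 5485, 6145 and 5583 in mutant libraries. Psme1 had 4541, 4825 and 5179 in wild type against 5635, 6068 and 5669 in mutant libraries. Neither overlapped between the groups. Psme2 rose (log2 fold change 0.32, SE 0.08, edgeR adjusted p = 0.0068) and Psme1 passed 0.05 only (0.26, SE 0.07, adjusted p = 0.016). For Psme2, 49.1% of the transcript windows also occur elsewhere in mm9, and for Psme1 3.11%. Leaving out any one library other than wild type 3 raised the adjusted p of Psme2 above 0.01, to at most 0.048. It was the most abundant gene of its class per length, at 246 RPKM in wild type.

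Psme3, which forms the nuclear PA28 gamma cap and is not induced by interferon, was the only proteasome gene lower at an adjusted p under 0.05. It had 4000, 3714 and 3735 normalized counts in wild type against 3143, 3240 and 3184 in mutant libraries. All mutant libraries lay below all wild type libraries, and wild type 3 was not the nearest to them. On the log2 scale the difference was -0.26 (SE 0.07, edgeR adjusted p = 0.013). Its adjusted p was 0.0075 with DESeq2 and 0.0062 without wild type 3, and it ranged from 8.2e-04 to 0.36 over the alternatives. Psme3 per Psme1, both per base, lay in a narrow range in the mutants, 23.3%, 22.3% and 23.4%, against 36.8%, 32.1% and 30.1% in wild type. Since Psme1 lay higher and Psme3 lower without overlap, this ratio had to separate the groups. It is thus no separate sign of a difference in Psme3. Whereas the Psme1 and Psme3 promoters printed above hold neither of the capitalized motifs, that of Psme3 holds a CCAAT box.

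Psme4, the PA200 activator linked to histone turnover, had 979.6, 921 and 798 normalized counts in wild type against 1097, 1005 and 1198 in mutant libraries. These did not overlap, with a log2 fold change of 0.29 (SE 0.11, edgeR adjusted p = 0.066), and here wild type 3 was the lowest library. At 7.11 RPKM in wild type it was the least abundant gene of its class. The inhibitor Psmf1, which binds the free core, overlapped between the groups (log2 fold change 0.10, SE 0.08). Of the chaperones that assemble the alpha ring, Psmg3 had the highest value of the class (log2 fold change 0.36, SE 0.10, adjusted p = 0.017), with 1019, 1014 and 1202 normalized counts in wild type against 1354, 1475 and 1320 in mutant libraries. Its partner Psmg4 was level at 364 ± 30.3 and 365 ± 14.5 normalized counts (SD, n = 3). Psmg1 and Psmg2, which act as a pair, overlapped between the groups at log2 fold changes of 0.22 (SE 0.09) and 0.13 (SE 0.09). The median of these 9 genes was 0.22, with 8 positive.

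**Figure D3:**
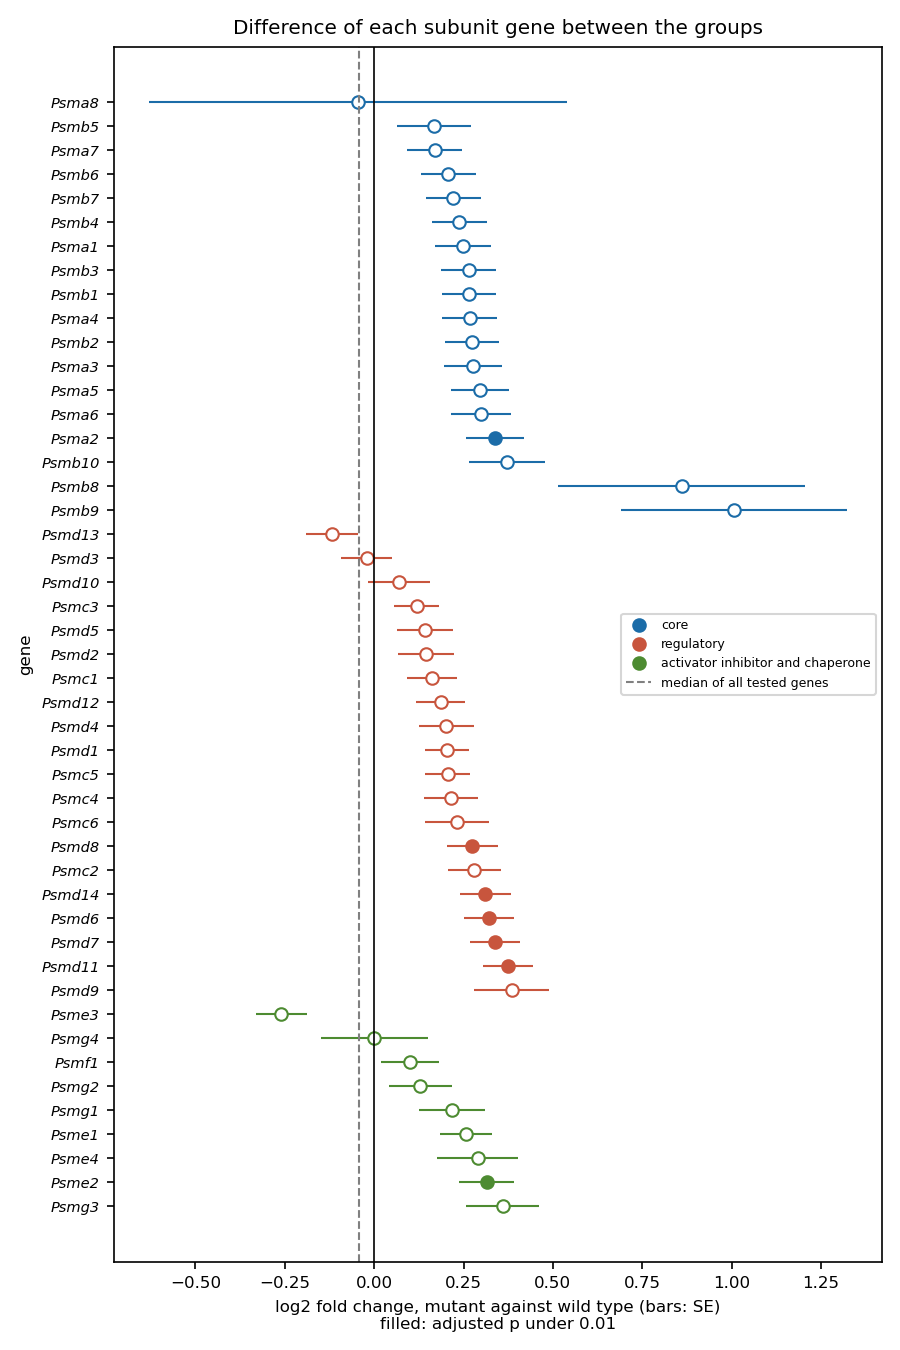
Log2 fold change of each tested proteasome gene (x axis, mutant against wild type, bars are the SE of the edgeR fit), sorted within the core (blue), regulatory (red) and other genes (green), with filled points at an adjusted p under 0.01 and a dashed line at the median of all tested genes, -0.04. Most genes lie between 0.1 and 0.4, Psmb8 and Psmb9 lie far to the right with wide bars, and Psme3 lies farthest to the left.

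How far the family stood above other genes depended on the correction used. The median of the core genes exceeded that of all tested genes by 0.31 on the log2 scale, that of the regulatory genes by 0.25 and that of the other class by 0.26. A change of scaling moves all genes nearly alike, so it could hardly change these gaps. They stayed within 0.01 with the scaling of DESeq2 or with library size alone, which is no test of the excess. With each library corrected for gene length, which moved the median of all genes by 0.13, the gaps were 0.09 for core, 0.18 for regulatory and 0.09 for the other genes. With a correction for expression level they were 0.10 for core, -0.0029 for regulatory and 0.10 for the other genes. Both corrections draw on trends that long or abundant genes share in a library, and the source of such trends was not tested. When the length-corrected values were in addition centred on 0, 29 of the 47 genes were positive and 18 negative. The numbers called at 0.01 were then 3 higher and 1 lower, with the level correction 2 higher and 1 lower, and with the length correction alone 13 higher and 0 lower. Beside these, the calls over all genes were 619 higher and 916 lower with the centred length correction, 683 and 817 with the level correction, and 1609 and 535 with the length correction alone. Psmd11 kept its call under each of these corrections. The level correction left Psma2, Psmd6, Psmd7, Psmd8, Psmd14 and Psme2 short of the threshold (edgeR adjusted p between 0.041 and 0.18). Psme2 was short of the threshold with the length correction alone (0.20, edgeR adjusted p = 0.019). Centring moved Psmd6 to 0.11, Psmd7 to 0.17, Psmd8 to 0.092 and Psmd14 to 0.13, short of the threshold, and Psme3 to -0.27, past it (adjusted p = 0.0052).

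**Figure D4:**
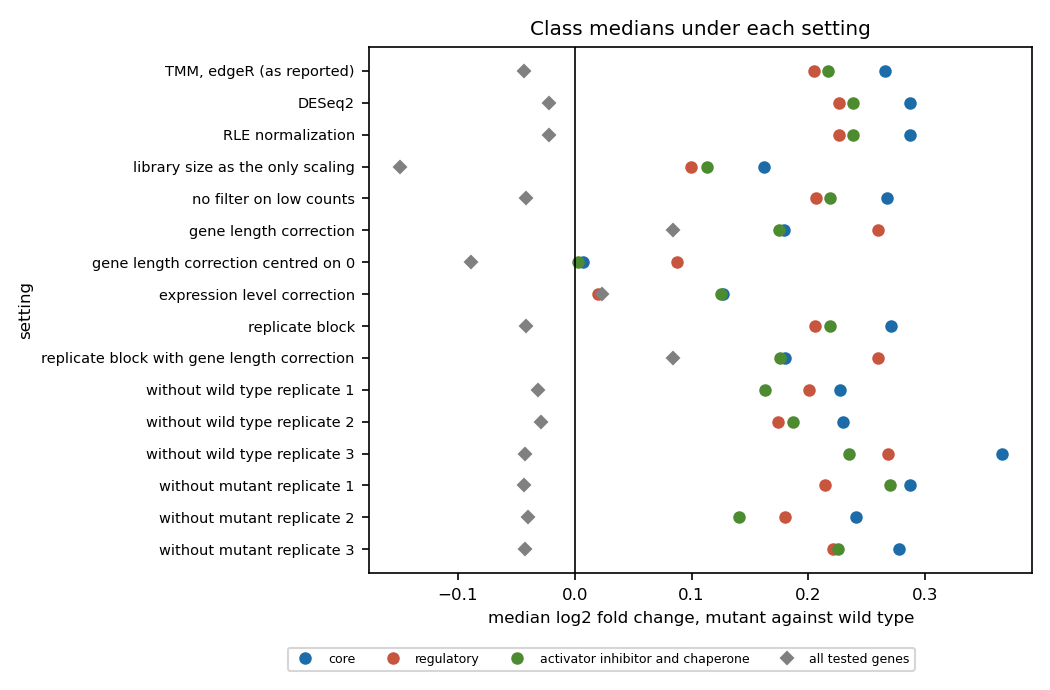
Median log2 fold change (x axis, mutant against wild type) of the core, regulatory and other proteasome genes (coloured points) and of all tested genes (grey diamonds) under each setting (y axis). The points lie well to the right of the diamond under the scaling alternatives, which move all genes nearly alike, and when a library is left out. They lie closer to it when gene length or expression level is corrected for.

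Genes that work with the proteasome were read from a list of 38, of which 37 are in the tables and 35 were tested. At an adjusted p under 0.01, 4 rose (11.4%, all tested genes 7.32%) and 6 fell (17.1%, all tested genes 7.61%). The median log2 fold change was 0.049. Proteins bound to the complex or needed for its assembly mostly had positive values. Of 12, 10 were positive (83.3%, all tested genes 45.7%), with a median of 0.22. At 0.01, 2 rose (16.7%, all tested genes 7.32%) and 0 fell. The 2 were the deubiquitinating enzymes of the regulatory particle. Usp14 had 7354, 7234 and 7959 normalized counts in wild type against 9349, 9767 and 9104 in mutant libraries (0.32 on the log2 scale, SE 0.07, edgeR adjusted p = 0.0025). Uchl5 had 4508, 4597 and 5850 in wild type against 6386, 6811 and 6449 in mutant libraries (0.39, SE 0.09, adjusted p = 0.0046). Both separated the groups, with wild type 3 the highest wild type library in each.

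The shuttle factors and the unfolding machinery, which bring ubiquitinated proteins to the proteasome, lay in the other direction. Of 8 genes, 7 were lower in every mutant library than in every wild type library (87.5%, all tested genes 22.2%). At an adjusted p under 0.01, 5 fell (62.5%, all tested genes 7.61%). Vcp, the ATPase that extracts substrates from membranes and complexes, had 10619, 10551 and 9030 normalized counts in wild type against 7149, 6072 and 7117 in mutant libraries. No library of one group came near the other. On the log2 scale the difference was -0.57 (SE 0.08, edgeR adjusted p = 1.4e-04). Ubqln2, a ubiquilin shuttle, had 241, 327 and 247 normalized counts in wild type against 130, 129 and 97.1 in mutant libraries (-1.19, SE 0.21, adjusted p = 8.2e-04). Its relatives Ubqln1 and Ubqln4 had log2 fold changes of -0.30 (SE 0.07, adjusted p = 0.0034) and -0.55 (SE 0.12, adjusted p = 0.0030), and the shuttle Rad23b one of -0.61 (SE 0.11, adjusted p = 0.0010). With each library corrected for gene length, 2 genes of the whole list of 35 fell in place of 6, and Ubqln1 moved to -0.05. Of all tested genes, 535 then fell in place of 951. With this correction centred on 0, 6 genes of the list fell, and with the level correction 7.

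Of 4 ubiquitin and ubiquitin-activating genes, Ubb and Rps27a, which encode ubiquitin, had log2 fold changes of 0.23 (SE 0.07, edgeR adjusted p = 0.017) and 0.29 (SE 0.08, adjusted p = 0.014). Uba1, the main activating enzyme, had one of -0.36 (SE 0.10, adjusted p = 0.0108). All 3 passed 0.05 and not 0.01, without overlap between the groups.

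Of 5 genes that control proteasome transcription, 4 were lower in every mutant library than in every wild type library (80.0%, all tested genes 22.2%). Only Ngly1, the glycanase that activates the transcription factor encoded by Nfe2l1, fell at 0.01 (log2 fold change -0.47, SE 0.12, edgeR adjusted p = 0.0078). Its edgeR adjusted p was 0.115 with the length correction and at most 0.048 with one library left out. Nfe2l1, whose product raises transcription of proteasome genes when the protease is inhibited, had 356, 462 and 332 normalized counts in wild type against 286, 276 and 296 in mutant libraries (-0.42, SE 0.17, adjusted p = 0.069). Among genes of antigen presentation, which the inducible subunits serve, 3 of 6 were positive and 3 negative, with a median log2 fold change of 0.08. Of the 6, 2 rose and 0 fell at 0.01, where 7.32% of all tested genes rose. B2m, the light chain of MHC class I, had 1547, 1614 and 1744 normalized counts in wild type against 2500, 2648 and 2601 in mutant libraries (0.66, SE 0.08, adjusted p = 3.4e-05). Erap1, which trims peptides in the endoplasmic reticulum, had 791, 660 and 824 in wild type against 1224, 1186 and 1142 in mutant libraries (0.64, SE 0.11, adjusted p = 6.7e-04). In both, every mutant library was above every wild type library.

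Tap1, the peptide transporter gene next to Psmb9, had a negative value. The 300-base RefSeq promoter windows of Psmb9 and Tap1 overlap by 275 bases, in opposite directions. Tap1 had 40.2, 50.2 and 17.1 normalized counts in wild type against 11.4, 9.56 and 16.6 in mutant libraries, and the log2 fold change of -1.51 had an SE of 0.59 (edgeR adjusted p = 0.064). The groups were separated by a narrow margin at wild type 3. Psmb9 and Tap1 thus lay on opposite sides of 0 from a shared promoter window, at a low depth. Of the 10 related genes past 0.01, B2m, Erap1, Vcp, Ubqln2 and Rad23b stayed past it without any one library, and the other 5 did not. Ubb, Rps27a, Uba1, Nfe2l1 and Tap1 were named after their values were seen.

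**Figure D5:**
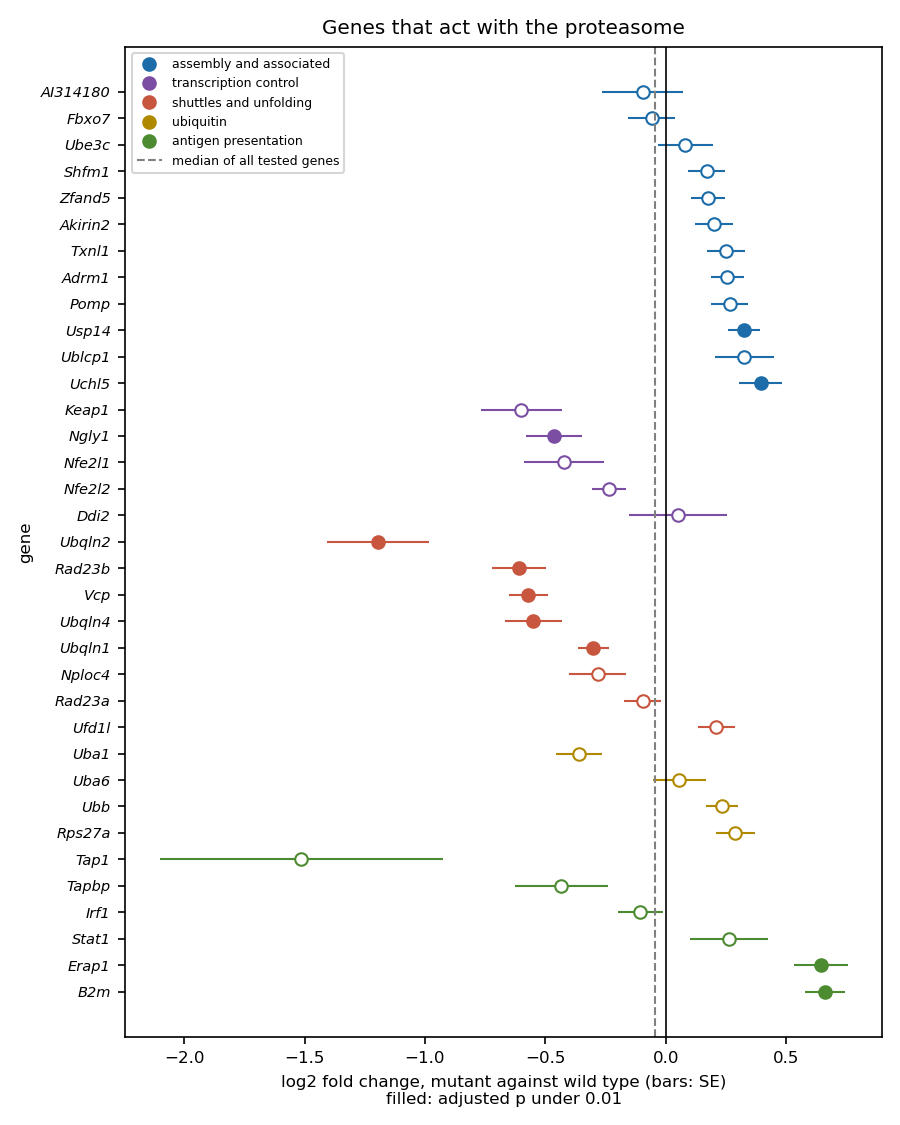
Log2 fold change (x axis, mutant against wild type, bars are the SE) of the 35 tested genes that act with the proteasome, grouped by role in colour, with filled points at an adjusted p under 0.01. Most genes of assembly lie to the right of 0 and 7 of 8 shuttle and unfolding genes to the left.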

How the data were processed

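Full-length cDNA of 500 sorted cells was made with the SMARTer v4 kit and sequenced by the authors, who used STAR 2.5.2b for mapping to mm9 and featureCounts 1.5.1 for counting, which took reads with a unique position only. They deposited raw read counts per gene, not normalized, for each of the 6 libraries, and these counts were used as deposited. Here genes were filtered with filterByExpr and tested with edgeR 4.0.16 (R 4.3.3, TMM, quasi-likelihood test, Benjamini-Hochberg adjustment over 12501 genes). The test was also run on simulated counts with the same dispersion for every gene and no deviating library. That run does not bear on the influence of wild type 3. The common dispersion was 0.0209. DESeq2 1.42.0 (the authors used 1.18.1), other scalings, filters and thresholds, loess corrections (span 0.5) for gene length or expression level and leaving out each library were alternatives. Lengths came from the longest coding transcript in an annotation of mm9. Same-numbered libraries were not taken as pairs.

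The genes, lists and tests were chosen with earlier results of these data known. Named were genes past an adjusted p of 0.01 (of the related genes, the 10 smallest), the catalytic subunits, Psma7, Psma8, all Psme, Psmf and Psmg genes, and the extremes of fold change and level in each class. Further members were named to describe their role. P-values set the difference between the groups against the spread between these libraries, and the embryos behind each library are not given. Some genes of the related list are not reported here.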

Additional observations from a re-analysis of the deposited data

How the results depend on the processing

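Counts of proteasome genes called at an adjusted p under 0.01 (core 1, regulatory 5 and other 1 higher, and 0 lower) changed with the setting, and the cause was not tested except where the threshold or the number of libraries itself changed. DESeq2 called 11 core, 9 regulatory and 3 other genes higher and 1 other gene lower. Library size as the only scaling gave 0, 2 and 0 higher and 1 other gene lower. Without a filter on low counts 7 core genes were higher. At an adjusted p under 0.05, 13 core, 10 regulatory and 3 other genes were higher and 1 other gene was lower, and with the fold limit of the study 0 were called. The gene length correction gave 2 core and 10 regulatory genes higher. Centred on 0 it gave 2 regulatory and 0 other genes higher and 1 other gene lower, and the expression level correction gave 1 and 0 higher and 1 lower. Leaving out one library at a time gave 0 to 14 core, 1 to 14 regulatory and 0 to 4 other genes higher and 0 to 1 other gene lower, each upper end being reached without wild type 3.

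Same-numbered libraries did not deviate together (correlations 0.0097, -0.0449 and -0.0179), so the numbers were not taken as pairs. With the replicate block 0 core, 2 regulatory and 0 other genes were higher. With the block and the length correction 2 core genes were.

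Related genes (4 higher, 6 lower) numbered 9 higher with DESeq2, 10 at 0.05 and 2 with the fold limit. They numbered 9 higher and 2 lower with the length correction, and 3 higher and 6 lower with this correction centred on 0. The level correction gave 2 higher and 7 lower, and block and length correction 7 higher and 2 lower. Without one library they numbered 2 to 11 higher and 3 to 7 lower. Over all tested genes (915 higher, 951 lower), 1395 were higher with DESeq2, 491 with library size, 348 with the fold limit and 1702 (1892 lower) at 0.05. The length correction gave 1609 higher and 535 lower, and the block with it 426 lower. Leaving out one library gave 414 to 1587 higher and 486 to 1149 lower.

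Some log2 fold changes turned sign. With the centred length correction they were -0.124 for Psma7, -0.0313 for Psmb2, -0.065 for Psmb3, -0.0047 for Psmb4, -0.14 for Psmb5, -0.11 for Psmb6, -0.0222 for Psmb7, -0.0201 for Psmc1, -0.0072 for Psmc3, -0.0141 for Psmc5, -0.13 for Psmd10, -0.0475 for Psmg1, -0.0896 for Psmg2 and -0.37 for Psmg4. With the level correction they were -0.0495 for Psma7, 0.38 for Psma8, -0.0303 for Psmc1, -0.0705 for Psmc3, -0.0744 for Psmd2 and -0.0233 for Psmd5. With library size they were -0.037 for Psmd10, -0.0038 for Psmf1 and -0.10 for Psmg4. Psmg4 was at -0.20 with the length correction, with or without the block. Psmd3 was at 5.6e-04 with DESeq2 and with its scaling, at 0.0747 with the length correction and at 0.0748 with block and length correction. Leaving out one library gave -0.206 to 0.0738 for Psma8, -0.0497 to 0.0193 for Psmd3 and -0.0602 to 0.0739 for Psmg4.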
